A study of Homo sapiens with 52 samples.

Results

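Chromosome 20 was examined for its contacts with the nuclear lamina in single cells. Its members were all bins of 100 kb on chromosome 20 that held a value in every cell, which gave 600 of the 631 bins of the chromosome and 600 of 26584 measured bins of the genome. The bins were chosen by position alone. The study mapped these contacts by DamID in KBM7, an established human chronic myeloid leukaemia line. All cells came from clone 14, had a ploidy of 2N, carried a Lamin B1 fusion and received 0.5 nM Shield1 for 15 h to switch on Dam methylation, and single cells were sorted from the smallest 2% that carried both markers of the Fucci cell cycle reporter. They form 1 group, and no control cells enter the comparisons. A column was present for 51 of the 52 cells, and cell 47 was not analysed here.

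The nuclear lamina is a mesh of lamin proteins under the inner nuclear membrane. Stretches of chromatin that touch it, called lamina-associated domains, are known to be poor in genes and mostly silent, whereas gene-dense and active chromatin lies further inside the nucleus. DamID records such contacts because Dam, a bacterial methyltransferase fused to Lamin B1, leaves methyl marks on adenines of DNA that comes near the lamina. Textbooks place JAG1, a Notch ligand, and PRNP, the prion protein gene, on its short (p) arm, and SRC, a tyrosine kinase, HNF4A, a liver transcription factor, and the imprinted gene GNAS on its long (q) arm. Deletions of the long arm are known from myeloid blood disorders. Genes were not placed on single bins here, since the files use build hg19 and an annotation of that build was not used.

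The authors deposited, for each bin and cell, the ratio of the observed over the expected signal (OE). A value of 1 or more was counted as contact of the bin in that cell. Contact frequency is the percentage of the 51 cells in contact with the bin, and the contact share of a cell is the percentage of bins contacted in it. The reads recovered from these ratios numbered 50978 in cell 9, the shallowest, and 316463 in cell 26, the deepest (median 142540). A chromosome 20 bin of median expected number (341) thus needed 2.29 reads for contact in cell 9 and 14.3 in cell 26. The labels name no separate cultures, and the cells are treated as 1 sample. SDs and counts of cells therefore describe these cells, no p-value is given, and copies of the chromosome in 1 cell cannot be told apart. No pair of cells had identical values.

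The question of how much of chromosome 20 touched the lamina came first. Chromosome 20 was contacted in 22.5% ± 6.37 of its bins (SD, n = 51 cells), against 31.7% ± 3.54 of the rest of the genome. The lowest cell had 6.83%, the median cell 22.7% and the highest 34.0%, whereas the rest of the genome had 24.3%, 31.2% and 40.1%. The difference within cells was -9.22 percentage points ± 4.94. Chromosome 20 was below the rest of the genome in 50 of 51 cells, cell 9 being the exception by 0.797 points. By mean share the chromosome ranked 17 of 22 chromosomes and joined chromosomes. The spread of its share between cells, taken relative to the rest of the genome, ranked 8 of 22. With every cell thinned to 50978 reads, the share was 21.1% ± 5.85, against 30.1% ± 2.73 in the rest of the genome.

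**Figure D1:**
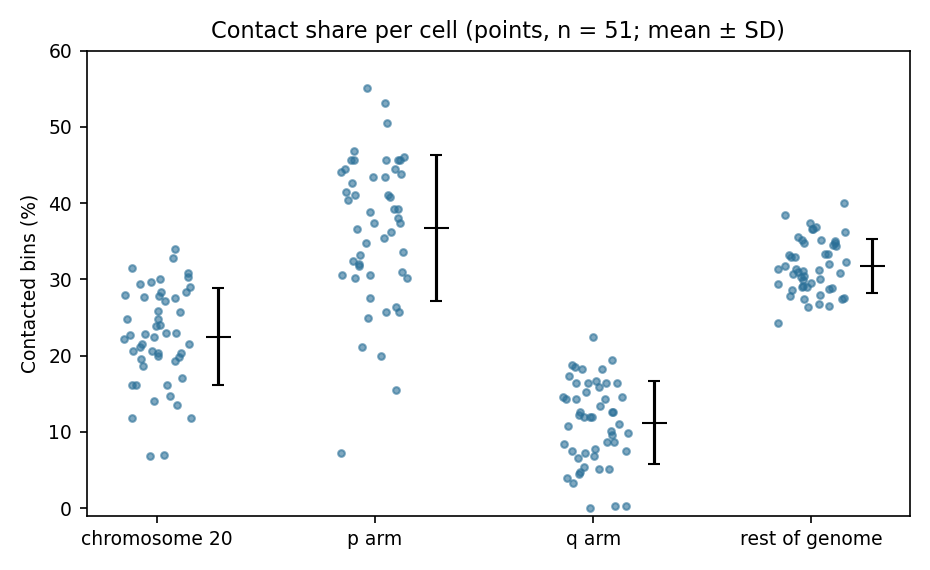
Contact share of each of the 51 cells (points, percentage of bins at an OE of at least 1) on chromosome 20, its p arm, its q arm and the rest of the genome, with the mean and SD beside each column of points. The p arm averaged 36.7% and the q arm 11.2%, on either side of the rest of the genome at 31.7%.

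Among the small chromosomes set beside it, 19, 21 and 18, chromosome 20 lay between the lowest and the highest. Other small chromosomes were not paired with it cell by cell. Since the cells are 1 sample, these differences carry no test. Chromosome 19, which shares its group in the karyotype, was contacted in 2.20% ± 2.1 of its bins, and chromosome 20 exceeded it by 20.3 points ± 6.27 in all 51 cells. Chromosome 18 was contacted in 46.9% ± 6.80, and chromosome 20 lay below it by 24.4 points ± 6.88 in all 51 cells. Chromosome 20 and chromosome 21 (23.8% ± 8.49) differed by -1.33 points ± 9.07, less than the spread between cells. Chromosome 20 was the lower of that pair in 25 cells and the higher in 26.

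The arms differed far more than chromosome 20 differed from the genome. They were split at the longest inner stretch without values, 1.5 Mb from chr20:27900001-29400000 (hg19), which left 265 bins on the p arm and 335 on the q arm. The p arm was contacted in 36.7% ± 9.55 of its bins (lowest 7.17%, median 38.1%, highest 55.1%), and the q arm in 11.2% ± 5.44 (lowest 0%, median 11.9%, highest 22.4%). The difference of 25.6 points ± 8.11 had this direction in all 51 cells. It was smallest in cell 43, at 0.304 points, and largest in cell 27, at 39.5. After thinning it had this direction in 50 cells, and in cell 43 the p arm stood at 6.42% and the q arm at 6.57%. The p arm was above the rest of the genome in 42 cells and below it in 9, while the q arm was below it in all 51.

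The recovered reads gave the same order of the arms without a threshold. Reads over expected number, scaled to the depth of each cell, averaged 1.08 ± 0.318 on the p arm and 0.366 ± 0.183 on the q arm (n = 51), against 1.01 ± 0.0182 in the rest of the genome. This whole-arm OE was higher on the p arm in 49 of 51 cells. Against the rest of the genome the counts changed: the p arm was below it in 20 cells by reads, and in 9 by contact share. The q arm was below it in all 51 by both measures. Bins that were 0 in every cell, 12 on the p arm and 49 on the q arm, have no known expected number and do not enter it.

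**Figure D2:**
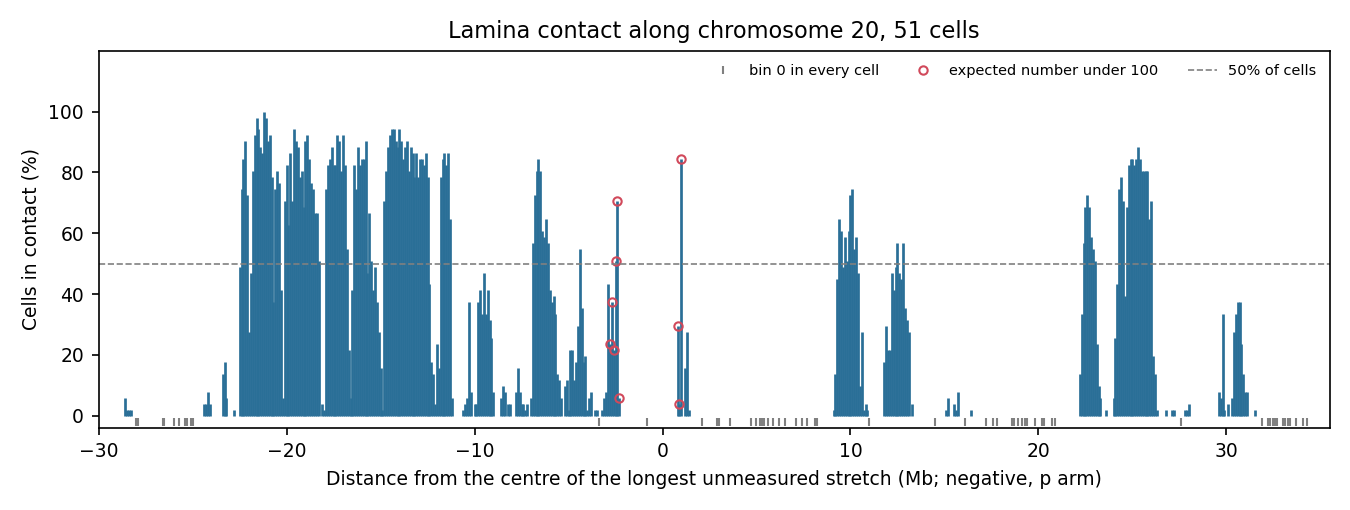
Contact frequency (percentage of 51 cells, vertical axis) of each measured bin along chromosome 20, by distance in Mb from the centre of the longest unmeasured stretch, with the p arm on the left. A block of the p arm reaches 100%, the q arm carries a few separate peaks of up to 88.2%, and the grey ticks under the axis mark bins that were 0 in every cell.

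Most bins of chromosome 20 were contacted either in very few cells or in most. No cell had contact in 299 of its bins (49.8%, against 38.5% in the rest of the genome and 38.7% of all measured bins). Of these, 238 held a read in some cell, and for them 0 of 51 cells allows up to 5.88% of cells with a contact call by the limit of 3 counts, which covers counting error only. Contact in 1 cell alone was found for 29 bins (4.83%, against 5.06% in the rest and 5.06% of all measured bins). At most 5% of cells had contact in 347 bins (57.8%, against 46.4% in the rest and 46.7% of all measured bins). At least 80% of cells had contact in 77 bins (12.8%), against 21.1% in the rest of the genome and 20.9% of all measured bins. Of these 77 bins, 65 lay on the p arm and 12 on the q arm. At least 90% of cells had contact in 23 bins (3.83%), against 13.0% in the rest and 12.8% of all measured bins, and all 23 lay on the p arm. Frequencies above 20% and under 80% were found in 122 bins (20.3%), close to the 22.1% of the rest and the 22.1% of all measured bins.

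A single bin of chromosome 20 was contacted in all 51 cells, or 0.167% of its bins against 0.839% in the rest and 0.824% of all measured bins. It lies on the p arm at chr20:7400001-7500000. Its OE ranged from 1.13 in the lowest cell through a median of 2.82 to 4.82 in the highest.

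Contact was gathered in 13 domains, defined as runs of at least 3 bins each contacted in at least 50% of cells. They were numbered along the chromosome, 9 on the p arm with 9.5 Mb and 4 on the q arm with 3.1 Mb. Bins of at least that frequency made up 22.7% of chromosome 20 (136 bins), against 32.4% in the rest of the genome and 32.1% of all measured bins. The domains covered 21.0% of the bins and held 73.8% of all contact calls on the chromosome. Since they were found from the same calls, these shares are a description. The 8 longest were to be named by rule, and the other 5 are given so that all are accounted for.

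The first 8 domains lay close together in an 11.2 Mb block of the p arm, chr20:6200001-17400000. The block was contacted in 69.9% ± 16.4 of its bins (lowest 12.5% in cell 43, median 73.2%, highest 92.0% in cell 49), and it exceeded the rest of the genome in 50 of 51 cells. It held 58.0% of the contact calls of chromosome 20 in 112 of its 600 bins. On its outer side, the first 6.2 Mb of the chromosome were contacted in 1.93% ± 2.19. On its inner side, the remaining p arm from 17400001 to 27900000 was contacted in 19.7% ± 11.0 and exceeded the rest of the genome in 5 cells. The borders of the block were noted after the values were seen. The domains in it were chosen for contact in at least 50% of these same cells. The excess of the block over the rest of the genome and its share of the calls are therefore a description. No stretch chosen in the same way elsewhere was compared.

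Domain 7, chr20:13800001-16200000, was the longest at 2.4 Mb. Its bins were contacted in 85.8% ± 17.5 (SD, n = 51), with a median cell at 91.7% and a lowest cell, 43, at 20.8%. It was in contact over its whole length in 20 cells and in over 50% of its length in 48, and no cell lacked contact in it altogether. Domain 4, chr20:8500001-10400000, was 1.9 Mb long and more ragged, with 77.6% ± 23.7, bin frequencies from 51.0% to 94.1% and whole-length contact in 9 cells. Domain 2, chr20:6800001-7900000, holds the bin contacted in every cell. Its 1.1 Mb were contacted in 90.7% ± 14.1, the highest share among the 13 domains, with whole-length contact in 28 cells and a lowest cell at 45.5%.

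The other domains of the block were shorter. Domain 5, chr20:10700001-11900000, was contacted in 82.2% ± 23.7. Domain 6, chr20:12200001-12900000, reached 83.8% ± 27.9, with whole-length contact in 30 cells and none in 2. Domain 8, chr20:16800001-17400000, stood at 80.4% ± 24.9. Domain 1, chr20:6200001-6600000, was contacted in 80.4% ± 30.9 and domain 3, chr20:8000001-8300000, in 77.1% ± 33.0. Domain 9, chr20:21700001-22600000, stands apart from the block on the p arm. It was contacted in 68.4% ± 30.1, in full in 14 cells and not at all in 2.

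The block was cut by narrow stretches of rare contact. The bin at chr20:10400001-10500000, between domains 4 and 5, was contacted in 0 of 51 cells, and its OE did not pass 0.901 in any cell, against contact frequencies of 51.0% and 74.5% in the nearest bins of the 2 domains. In 24 cells both of these flanking bins were in contact, and in 22 of the 24 none of the 3 bins between them was. The step at the inner edge of this stretch, 1.96% against 74.5% in adjacent bins with expected numbers of 405 and 408, was the largest on the chromosome between bins of an expected number of at least 100. A similar edge lay before domain 7, where the bin ending at 13800000 was contacted in 1.96% of cells and the next in 70.6%. Before domain 4, the bin ending at 8500000 was contacted in 5.88% and the next in 70.6%. The expected numbers of the bins at these 3 edges lay between 303 and 408.

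Some other interruptions were bridged more often. Between domains 2 and 3, the single bin from 7900001 was contacted in 37.3% of cells, and 19 of the 36 cells with both flanks in contact were also in contact there. Between domains 12 and 13 on the q arm, the bin from 53200001 was contacted in 39.2%, and 17 of 28 such cells bridged it. The 0.9 Mb between domains 6 and 7 were bridged in 0 of 35 such cells, and the 0.6 Mb between domains 7 and 8 in 0 of 33. They were wholly without contact in 1 of the 35 and in 11 of the 33. Both of these stretches hold several bins, and a bridge needs contact in each of them.

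The q arm had 4 domains, and each of them was without contact in 3 to 8 cells. Domain 13, chr20:53300001-54700000, was the longest of these at 1.4 Mb and was contacted in 79.7% ± 30.0 (median cell 92.9%), in full in 21 cells and not at all in 3. Domain 12, chr20:52900001-53200000, beside it was contacted in 74.5% ± 37.5. Domain 10, chr20:38300001-39000000, and domain 11, chr20:51000001-51700000, were each contacted in 61.6% (SD 36.3 and 35.9), and each was without contact in 8 cells. Their bins were between 51.0% and 74.5% and between 51.0% and 72.5%. Domains 10 and 11 also had the lowest mean OE of the 13 domains, 1.55 and 1.43. Domain 13 had a mean OE of 2.14, and the 8 domains of the p arm block had 1.88 to 2.47.

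Runs of intermediate contact lay between the domains or overlapped them. The longest run of bins between 20% and 80% was chr20:40500001-41800000 on the q arm, contacted in 39.2% ± 34.1 of its 13 bins. It was in full contact in 3 cells and without contact in 11. On the p arm, chr20:18800001-19600000 was contacted in 36.3% ± 31.9, in full in 4 cells and not at all in 14. The run chr20:22200001-23000000, which begins inside domain 9, reached 49.0% ± 31.6. The other 2 of the 5 longest such runs overlap domains 10 and 11 and their edges, with 58.2% ± 37.1 over chr20:37900001-39100000 and 54.2% ± 33.0 over chr20:50900001-51800000. In each of these 5 runs the SD over cells was above 30 points. Their bins were chosen for intermediate frequency, which favours a wide spread over cells.

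Long stretches were almost free of contact. Among runs of bins with contact in at most 5% of cells, the longest was 7.8 Mb of the q arm, chr20:30000001-37800000, with contact in 0.0503% ± 0.251 of its bins and in 49 of 51 cells none at all. Next came 6.4 Mb at chr20:44400001-50800000, with 0.0306% ± 0.219 and none in 50 cells. On the p arm, 4.3 Mb at chr20:100001-4400000 had 0.319% ± 1.04. Towards the end of the q arm, chr20:54900001-58200000 had 0.475% ± 1.65 and chr20:59800001-63000000 had 0.0613% ± 0.438. Of the bins in these 5 runs, 18, 15, 10, 1 and 13 were 0 in every cell. Among the other bins the median expected number lay between 293 and 373 in each run, and it was 341 over chromosome 20.

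Both ends of chromosome 20 were rarely contacted. The ends, taken as the 5 Mb next to the outermost measured bin on each side, were contacted in 2.80% ± 3.32, against 26.4% ± 7.36 of the other bins, and the difference of -23.6 points ± 6.77 had this direction in all 51 cells. The p end stood at 0.627% ± 1.57 and the q end at 4.98% ± 6.00. With ends of 10 Mb the difference was 1.14 points. That width takes in part of the p arm block and, on the q arm, domain 13 and part of domain 12. Bins within 5 Mb of the longest unmeasured stretch were contacted in 9.04% ± 5.98, against 24.7% ± 6.77 of other bins, lower in all 51 cells. The 2 sides differed, with 16.8% ± 12.8 on the p side and 3.32% ± 1.96 on the q side.

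Beside the unmeasured stretch, single bins reached high frequencies on few reads. The bin at chr20:29600001-29700000 was contacted in 43 of 51 cells (84.3%) at an expected number of 36, with a median of 2 reads in the cells in contact. The bin at chr20:26200001-26300000 was contacted in 36 cells (70.6%) at an expected number of 56, with a median of 3 reads. The step from 3.92% to 84.3% at 29600000 was the largest between adjacent bins of the chromosome, and a step of 64.7 points lay at 26300000, and both rest on these bins. Neither bin belongs to a domain.

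Cells differed in which arm had little contact. The cells with the lowest share of chromosome 20 were cell 18 with 6.83% (95% Wilson interval 5.08% to 9.14%) and cell 43 with 7.00% (5.22% to 9.33%). Cells 3 and 24 tied for the third place, each with 71 contacted bins or 11.8% (9.49% to 14.7%). Neighbouring bins are not independent, so these intervals are too narrow, and they cover counting error only. In cell 43 the p arm was contacted in 7.17% of its bins, the lowest of all cells, and the q arm in 6.87%. In cell 3 the p arm had 26.4% and the q arm 0.299%, and in cell 24 they had 20.0% and 5.37%. In cell 18 the p arm had 15.5% and the q arm 0 of 335 bins, which allows a share of up to 0.896%.

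**Figure D3:**
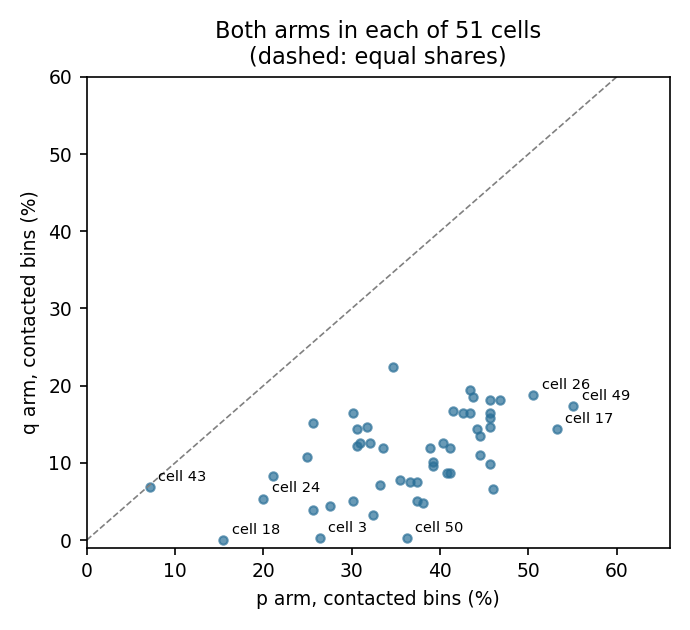
Contact share of the p arm (horizontal axis) against the q arm (vertical axis) in each of the 51 cells, in percent of bins, with a dashed line of equal shares. Cell 43 lies beside the line at 7.17% and 6.87%, cells 18, 3 and 50 lie at or near 0% on the q arm, cell 24 is marked as the tie of cell 3, and cells 49, 26 and 17 have the highest chromosome 20 shares.

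The domains without contact differed between these cells. In cell 43, domains 1, 3, 4, 6 and 8 had no contact and domain 7 had 20.8%, while domain 2 had 72.7% and the q arm domains 10 and 12 had 71.4% and 100%. In cells 18 and 3 the 4 q arm domains had no contact, while domain 2 had 54.5% in cell 18 and 81.8% in cell 3. In cell 24 domains 10 and 12 had no contact, domain 13 had 85.7% and domain 2 had 45.5%. Cell 50 had 36.2% on the p arm and 0.299% on the q arm. An arm under 50% of its mean was found in 2 cells for the p arm (18 and 43) and in 10 cells for the q arm, and cell 18 was in both counts.

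Depth and the rest of the genome were set beside these low shares, and their part in them was not tested. Cell 43 had 146696 reads, cell 3 had 142077 and cell 24 had 148847, near the median, while cell 18 had 80662, the fifth lowest. The rest of the genome had 26.5% in cell 18 and 26.4% in cell 43, the third and the second lowest, while cells 3 and 24 had 33.4% and 31.3%, on either side of the mean. After thinning to 50978 reads, cells 43, 18, 3 and 24 remained the lowest, with 6.50%, 7.83%, 9.50% and 12.7%. The cells with the highest share, 49 with 34.0%, 26 with 32.8% and 17 with 31.5%, had all 13 domains in contact over more than 50% of their length. They had 304780, 316463 and 192124 reads and 36.9%, 40.1% and 36.2% contact in the rest of the genome.

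Over the 51 cells, the chromosome 20 share correlated with reads at r = 0.362 (Pearson) and rho = 0.322 (Spearman), and r was 0.224 once the 2 most distant cells were left out. With the contact of the rest of the genome it had an r of 0.636 and a rho of 0.645, and r was 0.620 once the 2 most distant cells were left out. After the rest of the genome was subtracted, its correlation with reads was -0.0449 (rho -0.0744). These correlations describe cells of 1 clone whose values share library and depth.

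**Figure D4:**
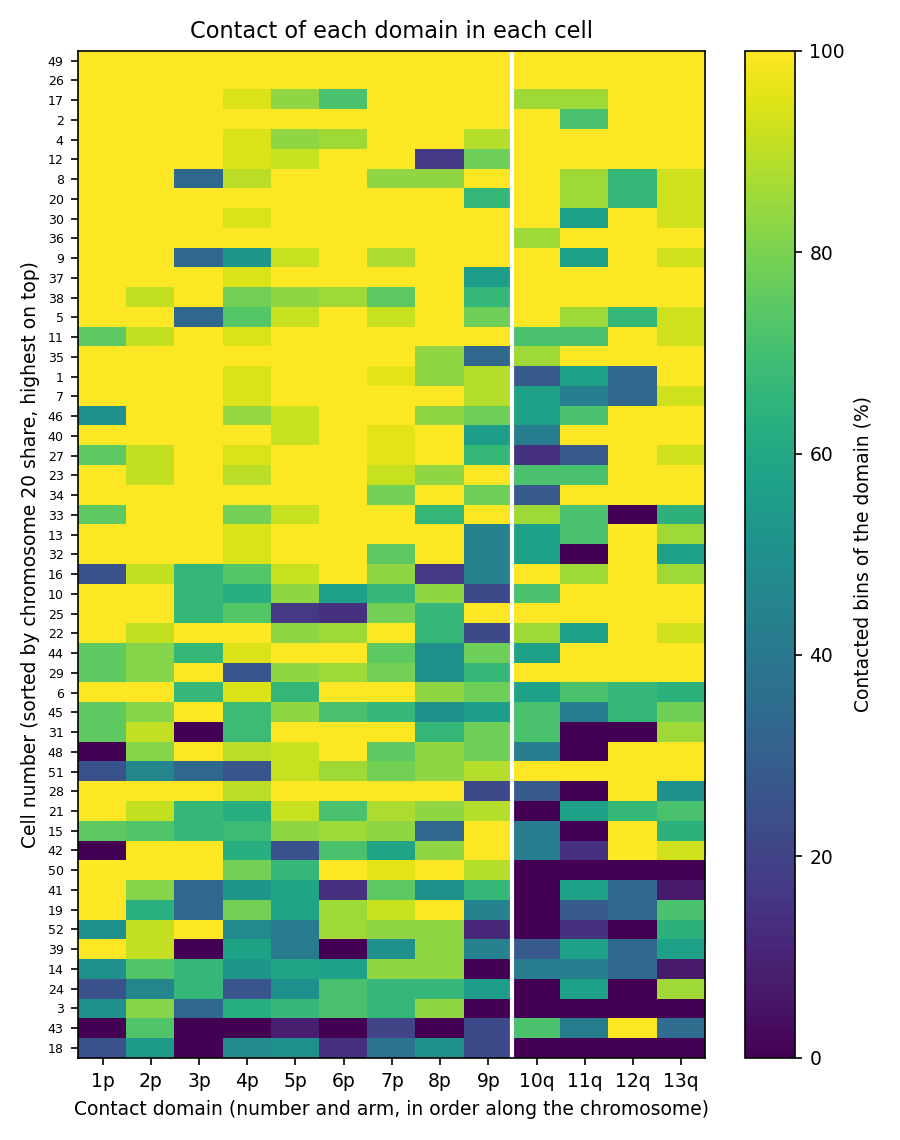
Contact share (colour, percent of bins) of the 13 domains in order along the chromosome (columns, p arm left of the white line) in each of the 51 cells (rows, sorted by chromosome 20 share). Most cells have full or nearly full contact in most p arm domains. Single domains lack contact in 0 to 4 cells on the p arm and in 3 to 8 cells on the q arm. In all, 14 cells lack contact in at least 1 q arm domain. Of these, 8 lack it in 1 domain, 3 in 2 domains, and cells 3, 18 and 50 in all 4.

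A typical cell touched the lamina with most domains, which follows in large part from how they were defined. Each bin of a domain was contacted in at least 50% of these same cells, so the counts are a description. On average 10.6 ± 2.74 of the 13 domains (SD, n = 51; lowest 1, median 12, highest 13) were contacted over more than 50% of their length and 5.69 ± 3.64 over their whole length. Domains without any contact numbered 0.765 ± 1.38 per cell, with a median of 0 and a highest of 5.

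Domain shares varied together from cell to cell, and more so within an arm. After the share of the rest of the genome was subtracted, the 78 pairs of domains had a mean Pearson's r of 0.341 over 51 cells, and 76 pairs were above 0. The mean was 0.412 for the 36 pairs on the p arm (lowest 0.153, highest 0.769), 0.570 for the 6 pairs on the q arm (0.459 to 0.620) and 0.232 for the 36 pairs across arms (-0.0686 to 0.471). Spearman's rho averaged 0.342, 0.533 and 0.165 in these sets. Domains 5 and 6, 0.3 Mb apart, had the highest r of 0.769, and domains 8 and 10, on different arms, had the lowest of -0.0686. Pairs across arms also lie further apart, 15.7 to 46.7 Mb, so arm and distance cannot be told apart in most pairs. The 8 pairs on 1 arm at 10 Mb or more (10.2 to 15.1 Mb) had a mean of 0.384, but the arms differed. The 5 of them on the p arm averaged 0.260 (0.189 to 0.408), near the mean across arms, and the 3 on the q arm averaged 0.591 (0.567 to 0.620). On the p arm all but the pair of domains 1 and 8 involve domain 9, and on the q arm all involve domain 10. This difference thus rests largely on 1 domain of each arm.

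The correlations were lower without the cells of lowest share. These cells were chosen by a share of which the domains held 73.8% of the contact calls. Leaving out the low end of such a share tends to lower the correlations by itself. Without cells 18, 43, 3 and 24, the mean over all pairs was 0.189, with 0.220 on the p arm, 0.512 on the q arm and 0.105 across arms. With 1 of the tied cells left in, the mean over all pairs was 0.218 (cell 24 kept) or 0.230 (cell 3 kept). The q arm domains 10 and 11 are 12 Mb apart and had an r of 0.620 over all cells. Domain 9 had a mean r of 0.243 with the 8 domains of the block on its own arm (0.0646 without the 4 cells), and of 0.333 with the 4 domains of the q arm (0.200 without them).

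**Figure D5:**
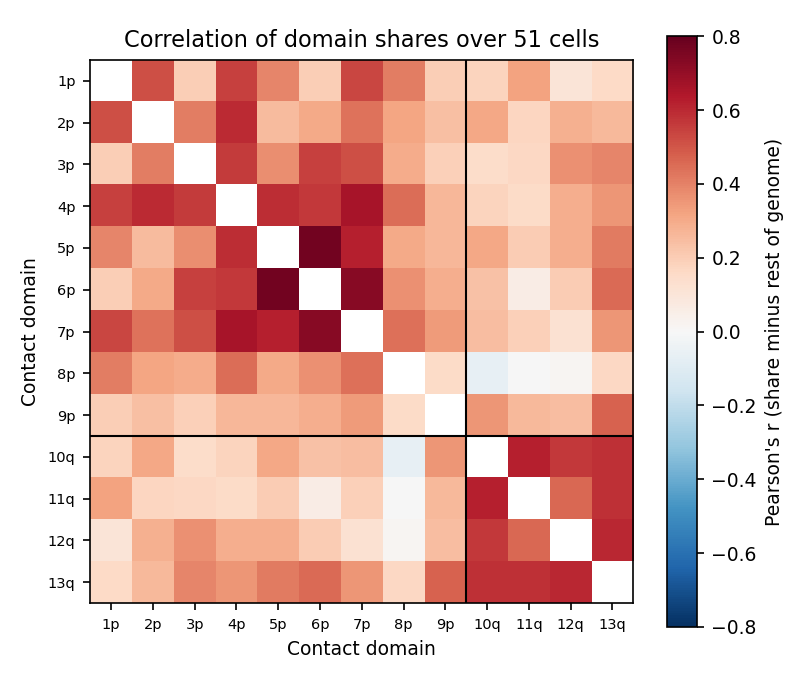
Pearson's r over 51 cells between the contact shares of each pair of domains, after subtraction of the share of the rest of the genome (colour), with lines between the p arm and the q arm. The 2 squares on the diagonal, within arms, average 0.412 and 0.570, and the cross-arm blocks average 0.232.

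After the genome share was subtracted, the correlation of chromosome 20 with other chromosomes was low on average. Its share relative to the remaining genome correlated with those of 21 other chromosomes and joined chromosomes at a mean r of 0.0279, from -0.283 for chromosome 7 (rho -0.279) to 0.304 for chromosome 1 (rho 0.208). Of the 21 values, 13 were above 0. The subtraction pulls the mean of such values towards 0 by construction, so it does not show that chromosomes vary independently. Before it, the chromosome 20 share correlated with that of the rest of the genome at r = 0.636. Without the 2 farthest cells the value for chromosome 1 was 0.169.

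Pairs of cells resembled each other on chromosome 20 about as much as elsewhere, with a wider spread. A single chromosome has far fewer bins than the rest of the genome, which tends to widen such a spread. Other single chromosomes were not compared. The phi correlation of contact calls averaged 0.600 (SD 0.125 over 1275 pairs) on chromosome 20 and 0.636 (SD 0.0533) in the rest of the genome. It was lowest for cells 18 and 43, with 0.0810 on chromosome 20 and 0.501 elsewhere. It was highest for cells 20 and 36, with 0.862 on chromosome 20 and 0.730 elsewhere.

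Uninterrupted contact was somewhat shorter than elsewhere. The mean run of contacted bins in a cell was 0.444 Mb ± 0.145 long on chromosome 20 and 0.538 Mb ± 0.0784 in the rest of the genome, and it was shorter on chromosome 20 in 40 of 51 cells. Of the 1588 runs on chromosome 20, 39.2% spanned 1 bin. Runs of 1 Mb or more made up 13.7% and held 48.0% of the contacted bins. The longest covered 4.1 Mb, chr20:6100001-10200000, in cell 12, across the stretches that separate domains 1 to 4. The longest run of a cell had a median of 1.9 Mb, and cell 18 had the shortest such maximum at 0.4 Mb. Of the 7 runs of at least 2.6 Mb, the other 6 all began at 13800001, the start of domain 7, and ended at 16400000 or 16500000.

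Contacted bins had a lower signal on chromosome 20. Their median OE was 2.16 ± 0.295 (SD, n = 51), against 2.47 ± 0.217 in the rest of the genome, and it was lower on chromosome 20 in 40 of 51 cells. Within chromosome 20, contacted bins had a median OE of 2.35 ± 0.394 in the domains and 1.66 ± 0.342 outside them. The domains were chosen on the same values, so the last pair is a description.

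The domains were also read in cells that did not define them. Those cells belong to the same sample, so the split is no independent repeat. The 25 odd-numbered cells gave 13 domains of 122 bins, and in the 26 even-numbered cells these bins were contacted in 81.1% ± 17.3, against 7.84% ± 4.42 of the other bins. The domains were the higher in all 26 cells, and 121 of the 122 bins (99.2%) reached a contact frequency of at least 50% there. The even-numbered cells gave 14 domains of 137 bins, contacted in 74.7% ± 18.3 in the odd-numbered cells, against 6.67% ± 3.28 of the other bins, again higher in all 25. Of these 137 bins, 125 (91.2%) reached a contact frequency of at least 50% there and 12 did not. The lowest share inside the domains, 24.1%, was above the highest share outside them, 15.7%.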

How the data were processed

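Single-cell DamID libraries of KBM7 clone 14 were handled with cutadapt and Bowtie2 2.1.0, and positions are on hg19 (both per the submitters' processing notes). Per the labels' protocols, DpnI, which cuts methylated sites, released the DNA, and 21 extension steps of PCR followed adapter ligation. The authors deposited ratios of observed over expected signal (OE), 1 per bin of 100 kb and cell; how the expected value was made is not given in the sources used here. Of the 30376 bins, 26584 had a value in every cell.

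In each value above 0, whole reads were scaled by 1 factor per cell and divided by a whole expected number per bin. Reads were recovered on this basis, and 100% of values came out whole within 0.02. The divisor of each bin was itself chosen to make its values whole. The 100% is thus in part fixed by that choice, above all in bins with few values above 0. The recovery was tested on simulated data of the same assumed form, which cannot test whether the deposited ratios have that form. Contact was an OE of at least 1, and intervals are Wilson intervals at the 95% level. Domains, named regions and named cells followed fixed rules: the 8 longest domains, the 5 longest rare and intermediate runs, the 5 largest steps, and the 3 highest and 3 lowest cells, with a tie for the third lowest kept. The members and lists were chosen with earlier results of these data known. Analyses used Python 3.11.15, numpy 2.4.6 and scipy 1.17.1. Gene lists set for chromosome 20 were not used, since an annotation of hg19 was not used here.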

Additional observations from a re-analysis of the deposited data

How the results depend on the processing

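Of 152 values under alternatives, 139 stayed within 1 SD of the value reported or, for counts, within 1.5 times of it. The SD was taken over cells, except for the mean r of domain pairs, where it was over the 78 pairs (0.178). That mean fell from 0.341 to 0.218 without cells 18, 43 and 3, and to 0.189 without cell 24 as well. Both values count among the 139, but an SD over pairs does not measure how this mean varies with the choice of cells. An SD over cells, likewise, does not measure how a mean over cells varies. Some of the 139 could not change. Dropping bins without a read in any cell left 77 bins at 80% of cells, 13 domains, 12.6 Mb in them and the same run length by construction. The 152 also include the settings without the cells of lowest share. At an OE of at least 0.5 the chromosome 20 share was 29.0%. At an OE of at least 2 it was 12.7%, the p arm exceeded the q arm by 15.9 points, the ends differed from the rest by -14.4 points, chromosome 20 exceeded chromosome 19 by 11.9 points, at least 80% of cells had contact in 3 bins, domains covered 5.6 Mb and the mean run length was 0.263 Mb. Shares and counts of contacted bins fall at a higher threshold by construction, and for the differences and the run length the cause was not tested. Thinned to one depth, at least 80% of cells had contact in 43 bins, against 77 before; the cause was not tested. With flanks of 2 Mb the bins beside the unmeasured stretch differed by -8.88 points. With ends of 10 Mb the difference of the ends was 1.14 points. That width takes in the first part of the p arm block, domain 13 and part of domain 12. With single bins allowed as domains there were 20, and domains at 80% of cells covered 6.8 Mb, against 12.6 Mb at 50%. The p arm exceeded the q arm by 15.9 to 31.4 points and chromosome 20 differed from the rest of the genome by -9.95 to -7.51 points in the settings run. Leaving out each cell in turn, chosen after the data were seen, moved the share from 22.2% to 22.8%, the arm difference from 25.3 to 26.1 points and the mean r of domain pairs from 0.295 (without cell 18) to 0.359. Leaving out cells 18, 43 and 3, with or without cell 24, and the thinned shares of single cells were also chosen after the data were seen. No paired analysis was possible because there was 1 group. Calls of single bins rest on the fewest reads in cell 9, with 2.29 at an OE of 1.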
